A study of Mus musculus with 66 samples.

Results

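The EGF family members examined here are 6 ligand genes, Areg, Ereg, Hbegf, Btc, Tgfa and Nrg1, and 2 receptor genes, Egfr and Erbb2. They were chosen by gene symbol, 8 of the 18511 genes listed in either of 2 count tables from C2C12 cells, and the reason for the choice was the higher level of Areg after knockdown of Ski8. That contrast is therefore described without a test. RNA-seq listed 5 of the 8 genes, and 3'READS, which sequences the 3' ends of polyadenylated RNA and counts reads per polyadenylation (pA) site, listed all 8 with 49 pA sites.

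C2C12 is an established line of mouse myoblasts, the proliferating precursors of muscle fibres. The cells were transfected for 48 h with 50 nM of siRNA, either a non-specific one (siCtrl) or one directed at 1 subunit of the Paf1 complex (Paf1C), either Paf1 (siPaf1), Cdc73 (siCdc73) or Ski8 (siSki8, gene symbol Wdr61). Each assay had 7 libraries, with siCtrl, siPaf1 and siCdc73 in batch 1 and in batch 2 and siSki8 in batch 2 only, so that siSki8 has no replicate. All groups share the same cell line and were kept as myoblasts, and the labels do not say whether the batches were separate cultures, so p-values measure only the spread between these libraries. The 52 ChIP-seq samples of the series were not analysed here.

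EGF family ligands are made as membrane-anchored precursors and are released by ADAM metalloproteases, after which they bind receptor tyrosine kinases of the ErbB family on the same or a neighbouring cell. Amphiregulin (Areg) and transforming growth factor alpha (Tgfa) bind the EGF receptor, HB-EGF (Hbegf), epiregulin (Ereg) and betacellulin (Btc) also bind ErbB4, and neuregulin 1 (Nrg1) binds ErbB3 and ErbB4, while ErbB2 has no known soluble ligand and acts as the partner of the other receptors. Active receptors signal through RAS and ERK, a pathway that in myoblasts favours proliferation over differentiation, and several ligand genes are themselves early targets of ERK. Paf1C travels with RNA polymerase II and acts in elongation and in 3' end formation, and Ski8 is also a subunit of the Ski complex, which takes part in cytoplasmic mRNA decay.

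The libraries held 2796693 to 8160386 gene counts in RNA-seq and 5302728 to 14340927 reads at pA sites in 3'READS. Each siRNA target was lower in its own libraries, with Paf1 at -2.38 and -2.35 after siPaf1 and Cdc73 at -2.91 and -2.14 after siCdc73, as log2 differences in RNA-seq from siCtrl of the same batch. Wdr61 was at -4.36 after siSki8 against siCtrl of batch 2. Of 8 myoblast markers, 5 in RNA-seq and 7 in 3'READS had a mean of at least 50 reads, and Myod1 was not listed in RNA-seq. In the 3'READS library of siPaf1 in batch 2, 260 genes lay more than 20-fold above every other library, none of the members was among them (0), and no other library of either assay held such a gene.

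Of the members, 5 in RNA-seq and 6 in 3'READS passed the filter on low counts, Btc and Tgfa being the ones left out. Tests used edgeR's quasi-likelihood method over all 6521 genes in RNA-seq and all 12579 in 3'READS, with Benjamini-Hochberg adjustment and a threshold of 0.05. Without a batch term 0 members were called in any comparison, beside 0% of all genes in RNA-seq and 0% in 3'READS for siPaf1 against siCtrl, siCdc73 against siCtrl and siPaf1 against siCdc73. At an unadjusted p under 0.05 the members numbered 1, 2 and 0 in RNA-seq and 0, 1 and 0 in 3'READS, in that order of comparisons, and DESeq2 without a batch term called 1, Hbegf in RNA-seq after siCdc73. Over all genes in RNA-seq, 572 higher and 584 lower genes had an unadjusted p under 0.05 after siPaf1, and DESeq2 called 175 and 215. After siCdc73 these were 648 and 729, and DESeq2 called 265 and 285. In 3'READS 870 higher and 1059 lower genes had an unadjusted p under 0.05 after siCdc73. The few members past these looser rules stand beside many genes of each table. The batch numbers come from the labels and pair the libraries, so each result below also has its value from a fit that carries the batch as a block, and a member is said to have risen or fallen only where it passed in that fit. There 32.5%, 39.9% and 28.2% of all genes were called in RNA-seq in the 3 comparisons and 18.8%, 22.5% and 14.4% in 3'READS. The members called were 2, 3 and 2 of 5 in RNA-seq and 0, 2 and 1 of 6 in 3'READS, which is not far from those shares for so few genes, so the counts say nothing particular about the family.

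Genes of 4 ligands of the family lie side by side on mouse chromosome 5. In the mm9 build, Ereg spans chr5:91503643-91522675 and Areg chr5:91568641-91577458, both on the plus strand, and Btc spans chr5:91786287-91831939 on the minus strand. With Epgn, which is no member, they fall within 375450 bases. Egfr and Erbb2 lie at separate places on chromosome 11, Nrg1 on chromosome 8 and Tgfa on chromosome 6. The 3' ends of the genes were read at single-base resolution in 3'READS. The 30 bases that end at the sites used most are shown because each value in 3'READS is a count of reads that end there. They are from the mm9 genome, read 5' to 3' on the strand of the gene, and capitals mark an AATAAA or ATTAAA hexamer, the signals bound by the cleavage and polyadenylation machinery.
Areg, last exon, chr5:91577427-91577456 (+): ttatagctcATTAAActttttttaaacaaa
Ereg, last exon, chr5:91522432-91522461 (+): tttctATTAAAgattctagtgaaacataaa
Egfr, intron 16, chr11:16787427-16787456 (+): tgtttctgcaaatacagccgctttacttaa
Egfr, intron 16, chr11:16787618-16787647 (+): aatttctctcatcattttgtttctgataaa
Egfr, last exon, chr11:16813875-16813904 (+): tcttataacaaAATAAAgtagcaaaaaaac
Erbb2, last exon, chr11:98298457-98298486 (+): tgttttttttttaaagatgaaataaggata
Erbb2, last exon, chr11:98298545-98298574 (+): caatgagatttgtaaaataactggacccca
Nrg1, past the annotated end, chr8:32925023-32925052 (-): aactaaagaatttattatctcaaatactaa
The main sites of Areg and Ereg each have ATTAAA, which without AATAAA is found in 15.0% of the 12294 sites in last exons that carry at least 50% of the reads of their gene, where AATAAA is found in 62.1%. Neither hexamer is in the windows of the sites used most in Egfr, Erbb2 and Nrg1, which is a description of these 30 bases only.

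Areg encodes amphiregulin, a ligand known in injured muscle as a product of regulatory T cells that acts on muscle progenitors. In RNA-seq the counts of Areg were 380 and 444 under siCtrl (batch 1, then batch 2), 804 and 440 under siPaf1, 781 and 560 under siCdc73 and 2523 under siSki8. Scaled to library size by TMM, these are 53.1 and 74.7 CPM (counts scaled to a common library size) under siCtrl, 116 and 153 under siPaf1, 121 and 179 under siCdc73 and 367 under siSki8. Each knockdown library was above both siCtrl libraries and the siSki8 library was the highest. In 3'READS the reads of Areg were fewer, 17 and 34 under siCtrl, 30 and 89 under siPaf1, 21 and 145 under siCdc73 and 179 under siSki8. As CPM they were 2.55 and 3.21 under siCtrl, 3.87 and 5.88 under siPaf1, 4.56 and 10.3 under siCdc73 and 20.4 under siSki8, again without overlap between siCtrl and any knockdown.

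In RNA-seq Areg rose after siPaf1 by 1.08 on the log2 scale (SE 0.23; edgeR, adjusted p = 0.000654 with the block and 0.215 without). The rise after siCdc73 was 1.22 (SE 0.23; edgeR, adjusted p = 0.000126 with the block and 0.146 without). Within batches 1 and 2 siPaf1 gave log2 differences of 1.12 and 1.04 and siCdc73 gave 1.18 and 1.26, so the 2 batches gave nearly the same size in each. Both calls held when each of the 4 libraries compared was left out with the block, with edgeR adjusted p from 4.52e-05 to 0.0292 for siPaf1 and from 0.00336 to 0.0141 for siCdc73. The comparison of siPaf1 with siCdc73 gave a log2 difference of -0.14 (95% interval -0.59 to 0.31; edgeR, adjusted p = 0.687 with the block). Both contrasts, in RNA-seq and in 3'READS, use the siCtrl libraries against which the rise of Areg after siSki8 was seen and the genes were chosen. A low level of Areg in those libraries would raise these differences too. No leave-out removed both siCtrl libraries, so the calls are not independent of that choice.

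In 3'READS the log2 difference of Areg was 0.71 after siPaf1 (SE 0.42; edgeR, adjusted p = 0.229 with the block and 0.584 without). After siCdc73 Areg rose by 1.27 (SE 0.42; edgeR, adjusted p = 0.0338 with the block and 0.307 without), with within-batch differences of 0.79 and 1.62. That call was lost with the block in edgeR without siCtrl of batch 1 (adjusted p = 0.0553), without siCtrl of batch 2 (0.367) and without siCdc73 of batch 2 (0.417), and in DESeq2 with the block (0.102). With 17 to 145 reads in the libraries compared, counting error is a large part of these values.

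Hbegf encodes HB-EGF, a heparin-binding ligand whose precursor is also the diphtheria toxin receptor in humans. In RNA-seq its CPM were 16.5 and 18.2 under siCtrl, 33.4 and 24.8 under siPaf1, 54.0 and 46.3 under siCdc73 and 21.5 under siSki8, from 71 to 349 counts per library. The siCdc73 libraries were the highest and the siCtrl libraries the lowest. In 3'READS all reads of Hbegf ended at 1 site, 3 bases before the annotated end of its 6 exons. They gave 51.7 and 128 CPM under siCtrl, 71.7 and 160 under siPaf1, 155 and 260 under siCdc73 and 190 under siSki8, and the batch 2 library was the higher in each replicated group.

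After siCdc73 the log2 change of Hbegf in RNA-seq was a rise of 1.51 (SE 0.28; edgeR, adjusted p = 8.08e-05 with the block and 0.0938 without). The call held without each of the 4 libraries (edgeR with the block, adjusted p from 0.000678 to 0.0108). In 3'READS it rose by 1.30 (SE 0.28; edgeR, adjusted p = 0.00369 with the block and 0.418 without), a call lost without siCtrl of batch 1 (0.0660) and without siCdc73 of batch 1 (0.0577). The within-batch differences were 1.69 and 1.33 in RNA-seq and 1.58 and 1.02 in 3'READS, so the direction was the same in both batches of both assays.

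After siPaf1 the change of Hbegf was smaller and rested on single libraries. In RNA-seq it rose by 0.73 (SE 0.29; edgeR, adjusted p = 0.0450 with the block and 0.354 without). The call was lost without siCtrl of batch 1 (0.410), without siCtrl of batch 2 (0.106), without siPaf1 of batch 1 (0.203) and in DESeq2 with the block (0.0769). In 3'READS the log2 difference was 0.39 (edgeR, adjusted p = 0.344 with the block and 0.844 without). Hbegf was lower after siPaf1 than after siCdc73 by -0.78 in RNA-seq (SE 0.28; edgeR, adjusted p = 0.0353 with the block and 0.408 without) and by -0.91 in 3'READS (SE 0.27; adjusted p = 0.0370 and 0.656). In RNA-seq that difference was lost without siPaf1 of batch 2 (0.126), siCdc73 of batch 1 (0.251) or siCdc73 of batch 2 (0.213), and in 3'READS without siCdc73 of batch 1 (0.314) or of batch 2 (0.0861), and DESeq2 with the block lost it in RNA-seq (0.0626). Scaling by library size with the block also ended it, with an adjusted p of 0.102 in RNA-seq and 0.0905 in 3'READS.

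**Figure D1:**
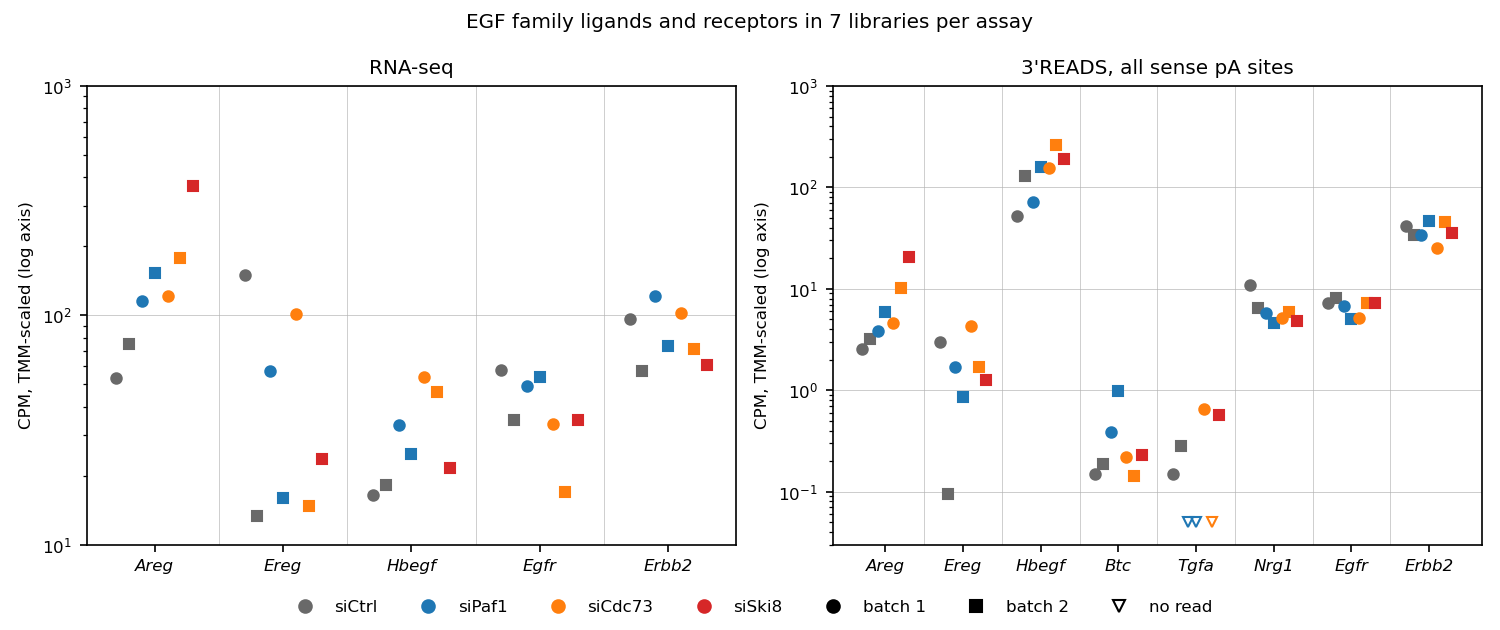
Level of each EGF family member as TMM-scaled CPM on a log axis, in RNA-seq and in 3'READS. Each symbol is 1 library (circles for batch 1, squares for batch 2, open triangles for a library with no read), grouped by siRNA. Areg in RNA-seq runs from 53.1 in siCtrl to 367 after siSki8, and in RNA-seq Ereg splits by batch rather than by siRNA.

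Markers of other cell types were counted because EGF ligands are made by many of them. Of 7 epithelial markers RNA-seq listed 2, Krt8 and Epcam, whose summed level was 0.140 and 1.01 CPM under siCtrl, 1.29 and 2.44 under siPaf1, 19.3 and 61.9 under siCdc73 and 8.29 under siSki8, and only Krt8 reached a mean of 50 reads. In 3'READS 6 of the 7 summed to 2.10 and 0.661 CPM in siCtrl, 11.7 and 18.2 after siCdc73 and 4.55 to 8.33 in the other knockdowns. These values were highest in the siCdc73 libraries, as those of Hbegf were in RNA-seq, and their part in the result was not tested. In 3'READS Hbegf in siCdc73 of batch 1 (155 CPM) was below siPaf1 of batch 2 (160) and siSki8 (190). Summed myoblast markers ran from 1712 to 5115 CPM in RNA-seq and from 1134 to 2292 in 3'READS, and siCdc73 was below siCtrl in both batches of both assays. In RNA-seq they were at 1712 against 2600 in batch 1 and 2984 against 4801 in batch 2, and in 3'READS at 1567 against 2292 and 1134 against 2196. They moved with the siCdc73 results on Hbegf, Areg and Egfr, and their part in those was not tested. Macrophage markers summed to 8.10 CPM at most in either assay, adipocyte markers to 1.35, and endothelial markers to 1.18 in RNA-seq. In 3'READS the endothelial markers, of which Kdr alone had a mean of at least 50 reads, summed to 24.3 and 28.7 CPM in siCtrl and were lower in each knockdown library, at 4.64 and 18.6 for siPaf1, 5.21 and 6.88 for siCdc73 and 3.53 for siSki8. They thus moved with the knockdowns in the direction opposite to Areg, and their part in that result was not tested. In bulk RNA, fewer cells of a type and less RNA per cell cannot be told apart.

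Ereg encodes epiregulin. Its RNA-seq counts were 1075 and 79 under siCtrl, 397 and 46 under siPaf1, 657 and 46 under siCdc73 and 163 under siSki8, or 150 and 13.3, 57.1 and 16.0, 102 and 14.7, and 23.7 CPM. Every batch 1 library was above every batch 2 library. The batch 2 minus batch 1 log2 difference averaged -2.68 over the 3 replicated groups, and 0.491% of all genes had a mean batch difference as large. Some summed marker lists also moved with the batch in each replicated group. From batch 1 to batch 2, macrophage markers went the same way as Ereg, from 0.419 to 0.168 CPM in siCtrl, from 1.15 to 0.698 in siPaf1 and from 0.929 to 0.319 in siCdc73 in RNA-seq, and in 3'READS from 8.10 to 3.5, from 7.74 to 3.11 and from 7.81 to 2.98. Only 1 of these 5 markers was listed in RNA-seq and 4 in 3'READS. With 0 of them at a mean of 50 reads in either assay, these values are near the floor. Myotube markers went the other way in RNA-seq, from 21.1 to 130, from 52.3 to 280 and from 18.4 to 180, as did myoblast markers, from 2600 to 4801, from 2794 to 3536 and from 1712 to 2984. In 3'READS myotube markers also went up, from 127 to 252, from 202 to 486 and from 85.7 to 285. Myoblast markers went down there, from 2292 to 2196, from 2266 to 2060 and from 1567 to 1134, so the assays differed for them. The part of these lists in the result was not tested. In 3'READS Ereg had 20 and 1 reads under siCtrl, 13 and 13 under siPaf1, 20 and 24 under siCdc73 and 11 under siSki8. As CPM these were 3.00 and 0.0945, 1.68 and 0.859, 4.34 and 1.70, and 1.25. Batch 1 was thus the higher in each replicated group here too, from few reads.

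Against siCtrl, Ereg did not pass the test in RNA-seq, at -0.72 after siPaf1 (SE 0.31; edgeR, adjusted p = 0.0745 with the block and 0.704 without) and -0.29 after siCdc73 (SE 0.30; adjusted p = 0.451 and 0.853). The siPaf1 value depended on the library. Within batches it was -1.39 and 0.27, and with the block Ereg was called lower without siCtrl of batch 2 (edgeR, adjusted p = 0.0165) and without siPaf1 of batch 2 (7.00e-05), but was at 0.01 without siCtrl of batch 1 (0.994) and at 0.08 without siPaf1 of batch 1 (0.869). Without siPaf1 of batch 2 it was also called lower after siPaf1 than after siCdc73 (edgeR with the block, adjusted p = 0.00600). In 3'READS the difference after siCdc73 was 1.27 (SE 0.97; edgeR, adjusted p = 0.282 with the block), with too few reads to give a narrower interval than -0.63 to 3.17.

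The pA sites of Ereg were spread more widely in some libraries. Its main site took 100% of the reads in both siCtrl and both siPaf1 libraries, from 1 to 20 reads each. It took 55.0% of 20 reads (95% Wilson interval 34.2 to 74.2) and 12.5% of 24 (4.34 to 31.0) after siCdc73, and 81.8% of 11 (52.3 to 94.9) after siSki8. The other reads of the siCdc73 library of batch 2 lay mostly in the same last exon, 8 of them at 1 site upstream of the main one. In siCdc73 of batch 1 most of the other reads were in intron 1, with 3 at chr5:91503852 and 3 at chr5:91507353. The rest there were in the last exon, with 2 at chr5:91520008 and 1 at chr5:91520173. These counts were below the minimum for a test of pA site use, and the intervals here and below cover counting error only.

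The other ligands were near the floor or were seen in 3'READS alone. Btc, which encodes betacellulin, had 26 reads in all, of which 15 were in siPaf1 of batch 2 and 1 to 3 in each other library. Tgfa had 12 reads in all, at most 5 in a library and 0 in both siPaf1 libraries and in siCdc73 of batch 2. At this depth no difference of either gene was detectable. Nrg1 had 73 and 69 reads under siCtrl, 45 and 70 under siPaf1, 24 and 83 under siCdc73 and 42 under siSki8. The siCtrl library of batch 1 had the highest level at 10.9 CPM, and the other 6 ran from 4.63 to 6.52 CPM. The log2 difference of Nrg1 was -0.70 after siPaf1 (SE 0.41; edgeR, adjusted p = 0.236 with the block) and -0.56 after siCdc73 (SE 0.42; adjusted p = 0.350).

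Nrg1 had the most sense-strand sites of the members, 15, of which 4 were intronic and 11 lay past the end of the annotated gene, the farthest 4272 bases beyond it. The most used, whose window is printed above, took 243 of 406 reads (59.9%) and lay 3477 bases past that end. Intronic sites took 9.59% and 8.70% of the reads under siCtrl, 20.0% and 12.9% under siPaf1, 4.17% and 9.64% under siCdc73 and 14.3% under siSki8. From 24 to 83 reads per library the Wilson intervals of these shares overlapped throughout.

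Egfr encodes the receptor that all the ligands of the list but Nrg1 bind. In RNA-seq its longer transcript had 412 and 208 counts under siCtrl, 343 and 154 under siPaf1, 218 and 53 under siCdc73 and 240 under siSki8. The CPM were 57.6 and 35.0 under siCtrl, 49.3 and 53.7 under siPaf1, 33.7 and 16.9 under siCdc73 and 34.9 under siSki8, so that siCdc73 was the lowest group and overlapped none of the libraries of siCtrl or siPaf1. Egfr fell by 0.86 on the log2 scale after siCdc73 (SE 0.29; edgeR, adjusted p = 0.0163 with the block and 0.328 without), with -0.76 and -1.03 within batches. The call was lost without siCtrl of batch 1 (0.249), without siCdc73 of batch 2 (0.327) and in DESeq2 with the block (0.0503).

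After siPaf1 the log2 difference of Egfr in RNA-seq was 0.20 (95% interval -0.35 to 0.75; edgeR, adjusted p = 0.611 with the block), at -0.22 and 0.61 within batches. Egfr was higher after siPaf1 than after siCdc73 by 1.06 (SE 0.29; edgeR, adjusted p = 0.00733 with the block and 0.399 without). This was lost without siPaf1 of batch 2 (0.116) and without siCdc73 of batch 2 (0.270). In 3'READS the differences of Egfr from siCtrl were -0.37 after siPaf1 (SE 0.40; edgeR, adjusted p = 0.549 with the block) and -0.27 after siCdc73 (SE 0.41; adjusted p = 0.672), from 24 to 102 reads per library.

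In 3'READS most Egfr reads did not end at the sites of the full-length transcript. The annotated transcript Egfr-001 has 28 exons and codes for 1210 codons, and Egfr-002 has 16 exons and 655 codons and ends inside intron 16 of the longer one. A transcript that stops there codes for the ligand-binding part of the receptor without its kinase domain. The 2 intronic sites printed above lie in the last exon of Egfr-002 and took 349 of 452 Egfr reads (77.2%, Wilson interval 73.1 to 80.8), against 40 reads at the most used site of the long transcript.

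The share of Egfr reads at those intronic sites was 72.9% (59.0 to 83.4) and 89.5% (81.3 to 94.4) in siCtrl of batches 1 and 2. It was 60.4% (46.9 to 72.4) and 59.2% (48.0 to 69.6) after siPaf1, 87.5% (69.0 to 95.7) and 85.3% (77.1 to 90.9) after siCdc73, and 82.5% (71.4 to 90.0) after siSki8. The siPaf1 libraries were the lowest, and their intervals were apart from that of siCtrl in batch 2 but not in batch 1. CDS-APA, the use of sites in introns and internal exons against sites of the last exon, could be tested for Egfr and Nrg1. Its log2 ratio for Egfr was -1.69 after siPaf1 (edgeR, adjusted p = 0.236 with the block and 0.380 without) and 0.02 after siCdc73 (adjusted p = 0.953 with the block). Of these 2 members 0 were called without the block, 0 of them had an unadjusted p under 0.05, and 2.21% and 3.62% of 1766 genes were called after siPaf1 and siCdc73. With the block 0 members and 23.2% and 22.7% of genes were called, and DESeq2 was not run on site use.

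**Figure D2:**
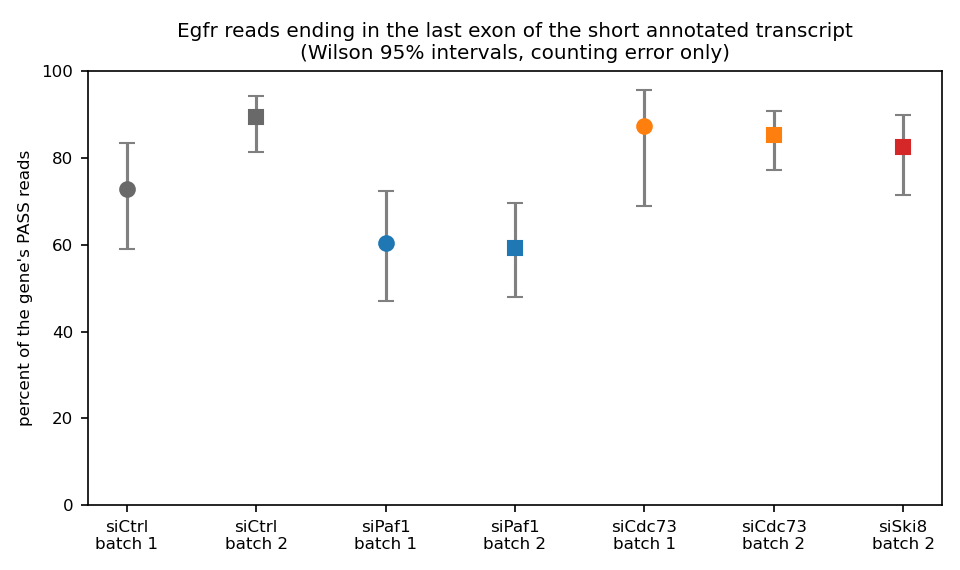
Percent of Egfr 3'READS reads that end in the last exon of the short transcript Egfr-002, for each library. Points are shares, bars are Wilson 95% intervals for counting error, and circles and squares are batches 1 and 2. The siPaf1 libraries are the lowest at 60.4% and 59.2%, and the other 5 run from 72.9% to 89.5%.

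RNA-seq counted the coding regions of both Egfr transcripts, which share their first exons, so that reads of the shared part count for both. The shorter had 141 and 62 counts under siCtrl, 105 and 26 under siPaf1, 76 and 11 under siCdc73 and 45 under siSki8. Per length it was below the longer one in each library, at 4.03 against 6.37 RPKM in siCtrl of batch 1 and 1.05 against 3.02 after siSki8. RNA-seq thus did not show the majority of the short form that 3'READS gave. The reason for this difference between the assays was not tested. RPKM are the authors' values, in which reads are divided by coding length and by the mapped reads of the library.

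Erbb2 encodes the receptor that pairs with the other ErbB proteins. In RNA-seq its CPM were 96.1 and 57.3 under siCtrl, 121 and 73.3 under siPaf1, 103 and 71.2 under siCdc73 and 61.0 under siSki8, and batch 1 was the higher in each replicated group. In 3'READS they were 41.8 and 33.7 under siCtrl, 34.1 and 46.5 under siPaf1, 25.4 and 45.9 under siCdc73 and 35.5 under siSki8. The groups overlapped in both assays. With the block the log2 differences were 0.34 (95% interval -0.13 to 0.81; edgeR, adjusted p = 0.286) and 0.20 (-0.27 to 0.67; 0.530) after siPaf1 and siCdc73 in RNA-seq, and 0.06 (-0.55 to 0.67; 0.918) and -0.13 (-0.74 to 0.49; 0.823) in 3'READS.

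Use of pA sites within the last exon, 3'UTR-APA, was tested for Areg, Erbb2 and Nrg1 as the proximal against the distal of the 2 sites used most. In Areg the main site took 458 of 515 reads (88.9%), and the proximal one 17.6% and 19.4% of the reads of both in siCtrl, 3.45% of 29 and 0 of 89 under siPaf1, 33.3% and 8.82% under siCdc73 and 7.34% under siSki8. A count of 0 of 89 allows up to 4.14% (Wilson upper bound). Both siPaf1 libraries were below every other library, with a log2 ratio of -2.74 against siCtrl that did not pass the test (edgeR, adjusted p = 0.0553 with the block and 0.961 without). In Erbb2 the proximal site took 59.6% and 65.5% under siCtrl, 39.7% and 60.8% under siPaf1, 38.2% and 65.7% under siCdc73 and 60.7% under siSki8, and the 2 low shares were both in batch 1. Without the block 0 of 3 members and 0% of 4567 genes were called after siPaf1, and likewise after siCdc73 (0 of 3, 0%), with 1 and 0 members at an unadjusted p under 0.05. In the blocked fit 0 of 3 members were called in each comparison, beside 6.55% and 4.29% of all genes. There 2 members after siPaf1 and 0 after siCdc73 had an unadjusted p under 0.05, as had 582 higher and 226 lower genes after siPaf1. The log2 ratio of Nrg1 was -2.26 after siPaf1 (edgeR, adjusted p = 0.239 with the block) and -0.30 after siCdc73 (0.964).

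**Figure D3:**
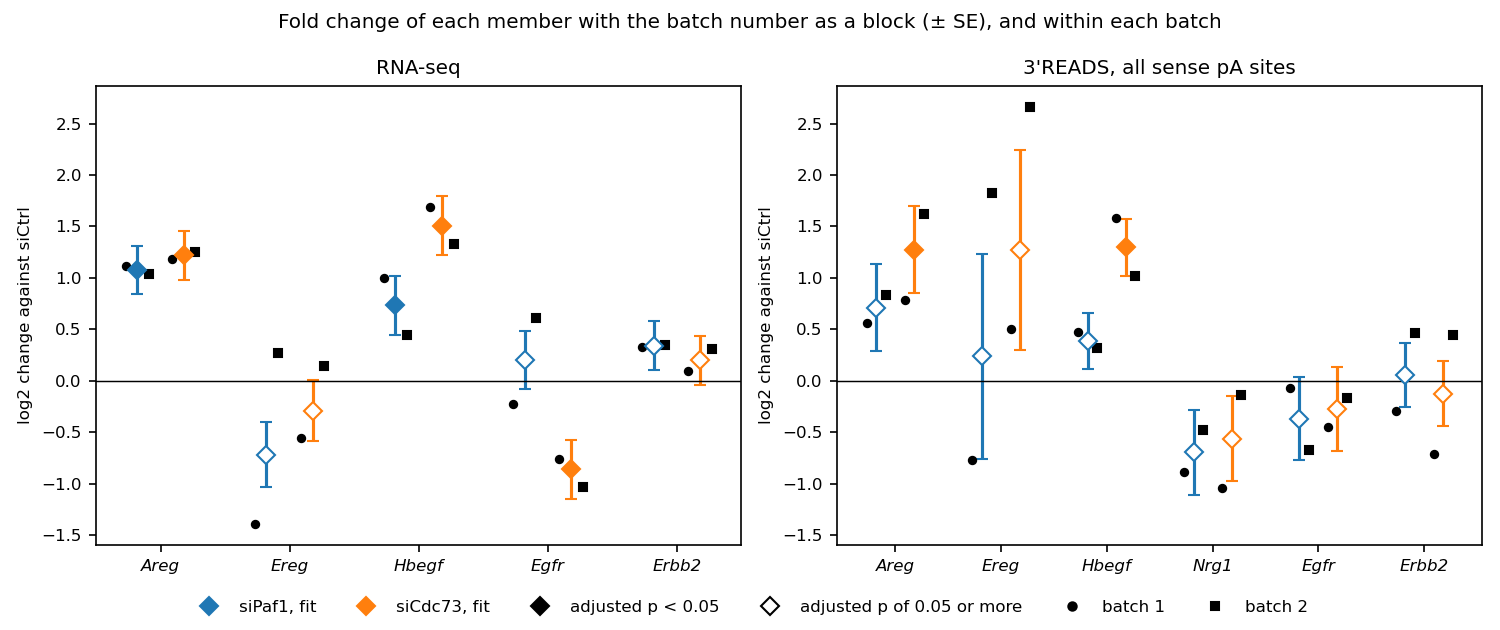
Log2 change of each tested member after siPaf1 and siCdc73 against siCtrl in RNA-seq and 3'READS. Diamonds with bars are the edgeR estimate ± SE with the batch as a block, filled where the adjusted p is under 0.05, and black dots are the differences within batch 1 and batch 2. Areg and Hbegf are filled above 0 after siCdc73 in both assays and after siPaf1 in RNA-seq, and Egfr is filled below 0 after siCdc73 in RNA-seq.

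After siSki8 Areg was the member that stood apart, and this is the contrast for which the genes were chosen. In RNA-seq it was 2.29 above siCtrl of batch 2 on the log2 scale (4.90-fold), 2.78 above siCtrl of batch 1 and 1.04 above the highest of the other 6 libraries. In 3'READS it was 2.59 above siCtrl of batch 2 (6.01-fold), 2.90 above siCtrl of batch 1 and 0.97 above the highest other library. A difference from siCtrl of batch 2 at least as large was found in 15 of 6521 genes in RNA-seq (0.230%) and 34 of 12579 in 3'READS (0.270%). These shares describe 1 library and carry no replicate check.

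At least 2-fold above the mean of the siCtrl libraries were 1 member in RNA-seq, Areg, where 8.45% of all genes were, and 2 members in 3'READS, Areg and Hbegf, where 10.4% were. No member (0) was at least 2-fold below it, against 11.7% of genes in RNA-seq and 11.6% in 3'READS. Hbegf after siSki8 was 0.24 in RNA-seq and 0.56 in 3'READS above siCtrl of batch 2, and its place past 2-fold in 3'READS came from siCtrl of batch 1, against which it was 1.87 higher. The siCtrl libraries themselves were at least 2-fold apart for 22.7% of genes in RNA-seq and 3775 of 12579 in 3'READS. Against siCtrl of batch 2 the siSki8 differences of the other members were 0.00 in RNA-seq and -0.18 in 3'READS for Egfr, 0.09 and 0.07 for Erbb2 and -0.43 in 3'READS for Nrg1. Ereg was 0.82 above siCtrl of batch 2 and -2.64 from siCtrl of batch 1 in RNA-seq, so its direction depended on the control library, and in 3'READS it had 11 reads against 20 in siCtrl of batch 1 and 1 in siCtrl of batch 2.

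**Figure D4:**
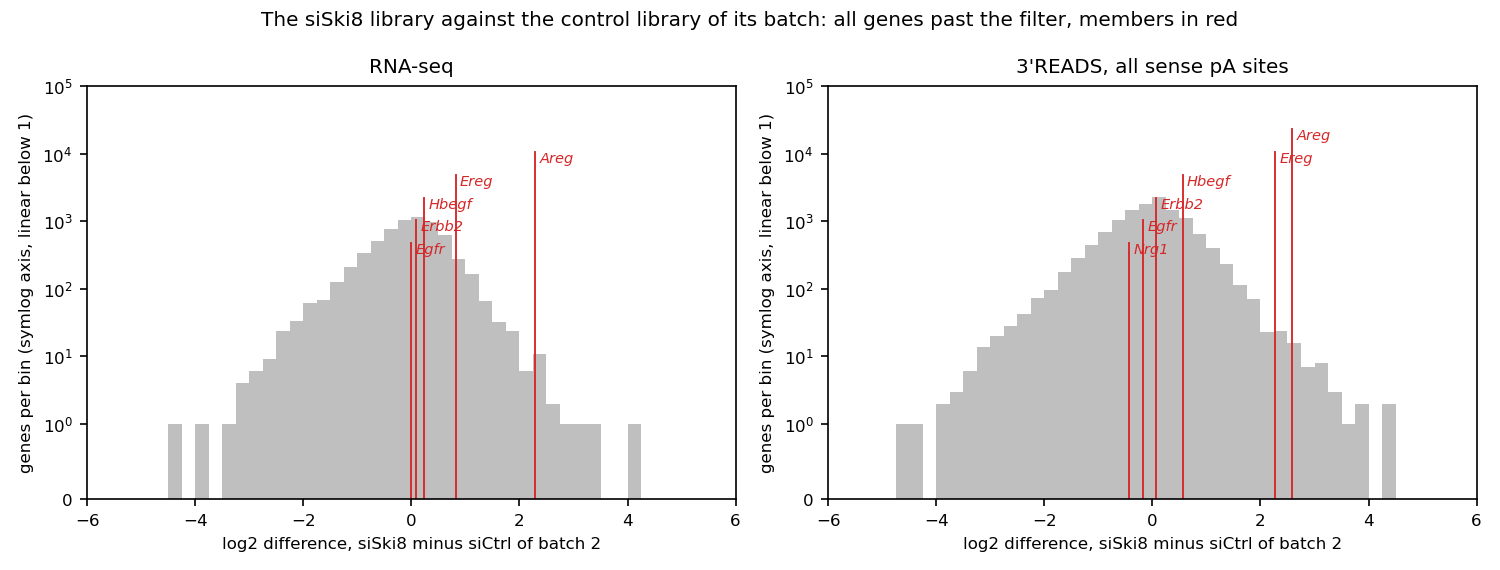
Distribution over all tested genes of the log2 difference of siSki8 from siCtrl of batch 2, in RNA-seq and 3'READS, with the number of genes on a scale that is linear near 0 and logarithmic above. Red lines mark the members. Areg lies in the right tail at 2.29 and 2.59, Ereg lies beside it in 3'READS with 11 reads against 1, and the other members lie between -0.43 and 0.82.

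Levels of different genes were compared per length, as RPKM in RNA-seq. In siCtrl the order was Ereg at 67.0 ± 80.1 (SD, n = 2), Areg at 33.3 ± 6.70, Hbegf at 10.8 ± 0.322, Erbb2 at 8.02 ± 3.16 and Egfr at 5.02 ± 1.91. Ereg and Areg did not differ beyond their spread, since Ereg was at 124 in batch 1 and 10.3 in batch 2, and their order turned between the batches. Hbegf and Erbb2 were close in batch 1, at 10.6 and 10.3, and apart in batch 2, at 11.0 and 5.79. Areg was above Hbegf, and Erbb2 above Egfr, in both batches. After siSki8 Areg stood at 154 RPKM, Ereg at 15.2, Hbegf at 10.8, Erbb2 at 5.08 and Egfr at 3.02.

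The 3' untranslated region of Areg is short and holds 4 ATTTA pentamers, the core of AU-rich elements that recruit mRNA decay factors, in 253 bases. Counted on the sense strand of the longest annotated 3' untranslated region, this is 15.8 per kilobase against a median of 1.16 over 18374 genes, and 0.207% of genes had at least as many per kilobase. One overlapping ATTTATTTA was among them, a 9-base form found in 5.26% of genes. Ereg had 9 ATTTA in 3504 bases, Hbegf 4 in 1454, Egfr 12 in 6303, Btc 4 in 2069 and Tgfa 3 in 3202, while Erbb2 and Nrg1 had 0 in 1048 and 456 bases. The main pA site of Nrg1 lay 3477 bases past its annotated end, so its count does not cover the sequence up to that site. These are letter matches in the annotation and say nothing of which factor binds.

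The genes whose pattern over the 7 libraries was closest to that of a member were found by the root mean square distance of centred log2 CPM, over 5130 genes in RNA-seq and 8311 in 3'READS. For Areg they were Actg1 (0.20), Ptpra (0.28) and Rmdn2 (0.31) in RNA-seq and Rab2a (0.33) and Rps6ka4 (0.37) in 3'READS. No gene was named for Areg in both assays. For Hbegf they were Asah2, Dpf2 and Stk4 in RNA-seq and Ppp1r15a, D030056L22Rik and Tsnax in 3'READS. The member nearest to Areg was Hbegf, at rank 1737 in RNA-seq and 216 in 3'READS, so many genes were closer to Areg than any other member was.

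The rest of the pathway was taken from a list of 70 genes. In RNA-seq with the block 8 rose and 5 fell of 36 tested after siPaf1 (36.1%, against 32.5% of all genes), with a median log2 change of 0.04 against 0.02, and 7 rose and 5 fell after siCdc73 (33.3% against 39.9%), with a median of 0.10 against -0.02. In 3'READS 10 rose and 6 fell of 62 after siPaf1 (25.8% against 18.8%), with a median of 0.18 against 0.08, and 10 rose and 11 fell after siCdc73 (33.9% against 22.5%), with a median of 0.18 against -0.02. Without the block 0 of them were called in edgeR. The list as a whole moved in both directions.

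Among the other ligands and receptors, Erbb3, a receptor for Nrg1, fell in 3'READS after both knockdowns with the block. Its log2 change was -0.86 after siPaf1 (edgeR, adjusted p = 0.0330 with the block) and -0.93 after siCdc73 (0.0206). Its reads, not scaled to library size, were 466 and 2024 in siCtrl, 288 and 1642 after siPaf1 and 175 and 1371 after siCdc73. In RNA-seq Erbb3 did not pass the test, at -0.53 (edgeR, adjusted p = 0.339 with the block) and -0.37 (0.485). Erbb4 had 0 reads in RNA-seq in all libraries and at most 2 in 3'READS. Nrg4, a ligand of ErbB4, was at 26.4 and 16.0 CPM in siCtrl and 69.2 and 61.9 after siCdc73 in RNA-seq, and rose by 1.64 on the log2 scale (edgeR, adjusted p = 1.59e-05 with the block and 0.102 without). After siPaf1 Nrg4 was at 53.9 and 37.7 CPM and rose by 1.11 (edgeR, adjusted p = 0.00200 with the block). It was at 31.6 CPM in the siSki8 library. In 3'READS Nrg4 had 1 read in siCdc73 of batch 2, 4 after siSki8 and 0 in each other library, so that assay gave no value for it. Of the 8 genes for ligand shedding, Adam12, a metalloprotease of muscle precursors, fell by 2.13 after siCdc73 in RNA-seq (edgeR, adjusted p = 0.000271 with the block) and fell by 2.95 in 3'READS (4.24e-05). Timp3, an inhibitor of these proteases, rose after both knockdowns in both assays.

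Of 16 negative regulators, 6 rose and 1 fell after siPaf1 and 4 rose and 1 fell after siCdc73 in 3'READS, and 3 rose and 0 fell, then 2 rose and 1 fell, of 9 in RNA-seq. In 3'READS these are 43.8% and 31.2% against 18.8% and 22.5% of all genes, and in RNA-seq 33.3% and 33.3% against 32.5% and 39.9%, so RNA-seq showed no higher share than all genes after siCdc73 and nearly the same share after siPaf1. Errfi1, which encodes an inhibitor of the EGF receptor kinase, was at 10.3 and 14.8 CPM in siCtrl and 107 and 245 after siPaf1 in 3'READS. It rose by 3.71 on the log2 scale after siPaf1 (edgeR, adjusted p = 5.04e-06 with the block and 0.171 without) and by 3.34 after siCdc73, where it was at 107 and 150 CPM. In RNA-seq, which counts the coding region, Errfi1 was tested too and did not pass, at -0.37 after siPaf1 (edgeR, adjusted p = 0.226 with the block) and -0.50 after siCdc73 (0.0843), so the assays differed in sign. Dusp5, an ERK phosphatase induced by ERK, rose by 3.97 and 4.43 in 3'READS (edgeR, adjusted p = 0.000167 and 0.000101 with the block). Its siCtrl level there was near the floor, at 0.2999 and 0.189 CPM in batches 1 and 2. It was at 5.93 and 7.27 CPM after siPaf1 and 6.73 and 11.7 after siCdc73. Dusp5 was not among the 9 tested in RNA-seq, so its rise rests on 3'READS alone. Rnf41, a ubiquitin ligase for ErbB3, rose by 1.91 after siPaf1 in RNA-seq (1.62e-06). Members of this group that rose include targets of ERK as well as inhibitors of the receptor.

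Among 26 adaptors and kinases the calls went both ways, 2 up and 2 down after siPaf1 and 2 up and 1 down after siCdc73 of 15 tested in RNA-seq (26.7% and 20.0%, against 32.5% and 39.9% of all genes). In 3'READS 1 rose and 3 fell after siPaf1 and 2 rose and 4 fell after siCdc73 of 24 tested (16.7% and 25.0%, against 18.8% and 22.5%). Akt1, a kinase downstream of PI3K, fell by 1.94 after siPaf1 in RNA-seq (edgeR, adjusted p = 1.40e-07 with the block) and by 1.45 in 3'READS (0.00398). Sos2, an exchange factor for RAS, fell by 1.77 after siPaf1 in 3'READS (edgeR, adjusted p = 0.000288 with the block), and Stat5b by 1.84 after siCdc73 (0.00146).

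Of 13 ERK response genes, Fos, an immediate early gene, was at 4.47 and 5.04 CPM under siCtrl, 22.3 and 25.5 under siPaf1, 34.0 and 32.5 under siCdc73 and 2.04 under siSki8 in RNA-seq. It rose by 2.24 after siPaf1 (edgeR, adjusted p = 4.17e-06 with the block and 0.0835 without) and by 2.73 after siCdc73 (1.54e-07 and 0.0705). After siSki8, where Areg was highest, Fos was 1.17 below siCtrl of batch 2 on the log2 scale (a difference of -1.17). Etv4, another target of ERK, fell by 1.89 after siPaf1 (edgeR, adjusted p = 1.45e-05 with the block) and by 1.89 after siCdc73 (1.03e-05). With the block 1 rose and 2 fell of the 5 tested in RNA-seq after siPaf1, and 1 rose and 1 fell after siCdc73. These are 60.0% and 40.0%, against 32.5% and 39.9% of all genes. In 3'READS 2 rose and 1 fell of 12 after siPaf1, and 3 rose and 2 fell after siCdc73 (25.0% and 41.7%, against 18.8% and 22.5%). The genes of this group thus moved in both directions.

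**Figure D5:**
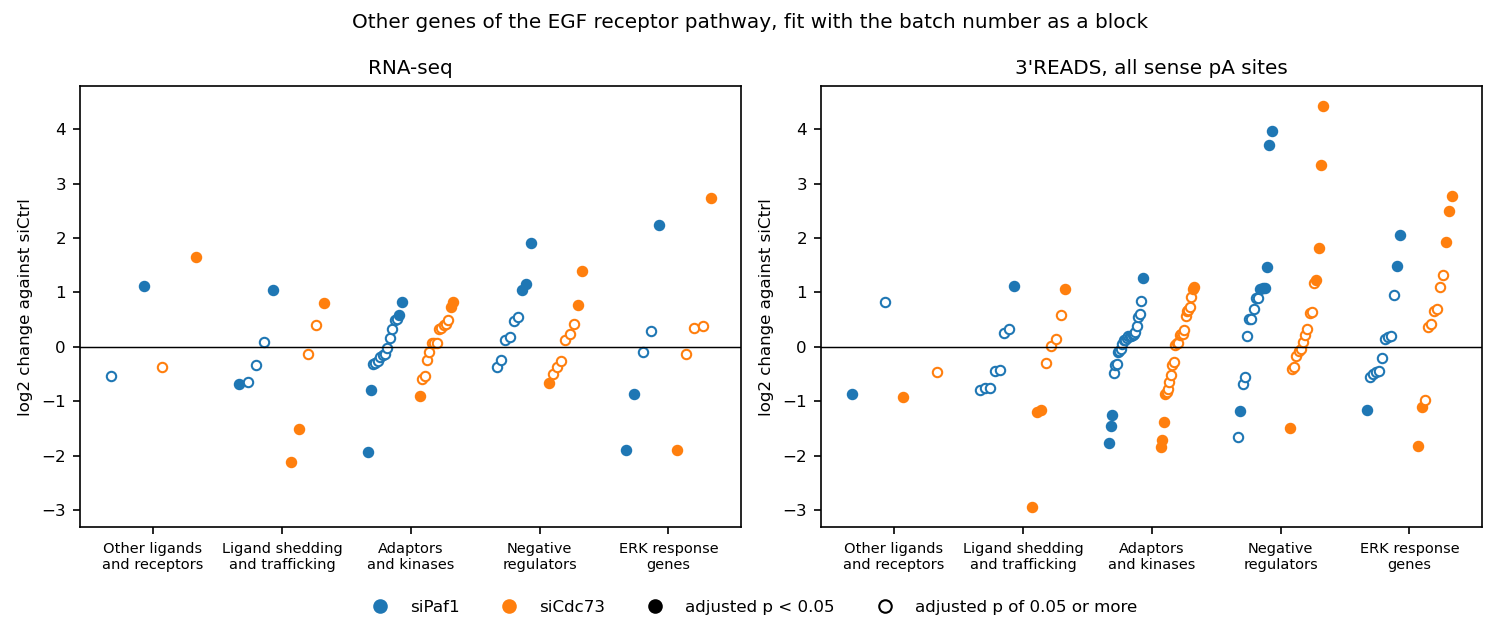
Log2 change with the batch as a block of the tested genes of the pathway list, by group, after siPaf1 and siCdc73 in both assays. Each point is 1 gene after siPaf1 (blue) or siCdc73 (orange), filled where its adjusted p is under 0.05. Genes above and below 0 are found in the adaptors and kinases and in the ERK response genes, and Dusp5 and Errfi1 are the highest points in 3'READS.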

How the data were processed

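RNA-seq and 3'READS count tables of C2C12 myoblasts were analysed, 7 libraries each. Per the labels and the study's methods, the authors aligned reads with Bowtie2 to the mm9 build and deposited raw counts over the coding part of RefSeq transcripts, RPKM values beside them, and raw counts of reads with untemplated A tails per pA site. Versions of the mapping software are not given in the sources used here. Each gene was represented by its transcript of highest mean count, or by the sum of its sense-strand pA sites. 0 per-sample columns were left unmatched.

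Counts were tested in R 4.3.3 with edgeR 4.0.16 (TMM, filterByExpr, quasi-likelihood test, prior count of 2 for log2 CPM), with DESeq2 1.42.0 as an alternative. All 7 libraries entered each fit. The study itself used other tests (a fold and Fisher's exact test rule in RNA-seq and its own significance analysis for site use). As its methods state no batch term, none was put into the primary model. The batch block is given beside it, since the labels give the number as the batch and batch differences correlated across genes between groups (r from 0.62 to 0.75 in RNA-seq and from 0.43 to 0.61 in 3'READS). Site use was tested as an isoform by knockdown interaction where the mean reached 20 reads per library, leaving out sites under 5% of a gene's reads. Tests were checked on simulated data. Tables, sequences and figures were made in Python 3.11.15 with pandas 2.3.3, numpy 2.4.6, scipy 1.17.1 and matplotlib 3.10.9, and positions are from the GENCODE annotation of mm9.

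The members and lists were chosen with earlier results of these data known. Named beside the members and siRNA targets were, per assay and knockdown, at most 2 pathway genes in each direction with the largest change among those called with the block, changed the same way in both batches and with a mean of at least 50 reads, and the 3 nearest patterns of each member, of which 1 is not reported here. Epgn, Erbb3, Erbb4 and Timp3 were named after their values were seen. Alternatives were the block, each library left out (a lone library is then assumed to vary like the other groups), library-size scaling, DESeq2, no filter, other transcripts or sites and other read minimums.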

Additional observations from a re-analysis of the deposited data

How the results depend on the processing

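The number of members called depended on the batch block. Without it, the count was 0 in every comparison under each alternative except DESeq2 for siCdc73 in RNA-seq, which called 1. With the replicate block it was 2 for siPaf1, 3 for siCdc73 and 2 for siPaf1 against siCdc73 in RNA-seq, and 0, 2 and 1 in 3'READS. With library size scaling and the block, a setting chosen after seeing the data, it was 2, 3 and 1 in RNA-seq and 0, 2 and 0 in 3'READS, and with DESeq2 and the block, also chosen after seeing the data, it was 1, 2 and 1 in RNA-seq and 0, 1 and 1 in 3'READS. With the block and each library left out in turn, the counts ran from 1 to 3, from 2 to 3 and from 0 to 2 in RNA-seq, and were 0, from 0 to 1 and from 0 to 1 in 3'READS. In site use the block called 0 members, and it changed no other call of a member. Of 734 member values under alternatives, 51 were called, 50 of them with the block, and 67 had the other sign, 0 of which were called. The cause was not tested. Past 2-fold of siCtrl after siSki8, with a gene counted once per assay, were 3 values, Areg in both assays and Hbegf in 3'READS. Without siCtrl replicate 2 there were 6 such values. Areg in both assays and Hbegf in 3'READS were higher, and Ereg in both assays and Nrg1 in 3'READS were lower. Hbegf after siSki8 in RNA-seq moved from 0.31 to -0.03 under library-size scaling, which shifted the median of all genes by -0.32 there, by -0.17 for siCdc73 and by 0.18 for siPaf1 against siCdc73 in RNA-seq, and by 0.19 for the last in 3'READS. Depth limits what can be said of Btc, Tgfa and Ereg in 3'READS, which had 26, 12 and 102 reads in all.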
